A study of Drosophila melanogaster with 2 samples.

Results

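The genes en, inv, hh, ptc and ci were examined for binding of GFP-tagged Tailless in early Drosophila melanogaster embryos. Tailless, an orphan nuclear receptor encoded by tll, patterns the ends of the embryo. Chromatin of whole embryos of both sexes, 0 to 4 h old, was precipitated with an antibody to GFP and sequenced (ChIP-seq). The embryos came from the transgenic strain 8T-GFP, whose insertion gives Tailless a GFP tag at its C terminus. Whether untagged Tailless was also present is not given in the sources used here. There was 1 group of 2 biological replicates, numbered 1 and 3, and no other genotype or treatment. Control samples were not analysed here, and the control enters only through the authors' peak calls. In whole embryos, binding in fewer cells and less binding per cell cannot be told apart. The data were 4 peak lists: 1 per replicate, 1 for the replicates pooled, and 1 thresholded. The threshold used the irreproducible discovery rate (IDR), a measure of recurrence between replicates. A summit, the point of highest signal within a peak, was a member when, among the starts of protein-coding genes (TSS, transcription start site), the closest belonged to one of these 5 and lay within 20 kb, or when it lay inside one of the 5 gene bodies. By this rule 25 of 4045 thresholded summits were members, as were 96 of 30000 pooled summits, 104 of 30000 in replicate 1 and 97 of 30000 in replicate 3. Summits were assigned by position, and signal was not used to choose them. The 5 genes themselves were chosen with earlier results of these data known.

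These 5 genes connect segmentation to signalling between cells. In each segment of the Drosophila embryo the homeodomain proteins Engrailed (en) and Invected (inv), encoded by neighbouring paralogs, mark the posterior compartment, where hh is transcribed. Hedgehog (hh) is a secreted ligand, Patched (ptc) its receptor and a target of the pathway in receiving cells, and Cubitus interruptus (ci) the zinc finger transcription factor that the signal controls. Tailless acts at both ends of the embryo, mainly as a repressor, and hh and en are also expressed in the head segments and in the hindgut region.

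Sequence is shown for 6 of the 10 thresholded summits at hh, which had the strongest and the most thresholded summits of the 5 genes when gene bodies were counted, on chromosome arm 3R of dm6, read on the plus strand. Every window shown holds a marked word, and the hh summits not shown had none of the words counted below within 50 bp. The first 2 windows span 120 bp on each side of the summit. They were widened to show the copy of AAGTCA, the recognition word of Tailless, that lay nearest to each. Its letters are in capitals.
hh 12116 bp downstream of the TSS, the strongest summit (chr3R:23129670-23129910): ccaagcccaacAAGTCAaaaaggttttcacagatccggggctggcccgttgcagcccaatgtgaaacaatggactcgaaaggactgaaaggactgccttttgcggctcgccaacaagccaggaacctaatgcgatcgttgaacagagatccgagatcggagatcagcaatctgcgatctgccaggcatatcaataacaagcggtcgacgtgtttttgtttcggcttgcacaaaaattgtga
hh 10259 bp downstream of the TSS (chr3R:23131527-23131767): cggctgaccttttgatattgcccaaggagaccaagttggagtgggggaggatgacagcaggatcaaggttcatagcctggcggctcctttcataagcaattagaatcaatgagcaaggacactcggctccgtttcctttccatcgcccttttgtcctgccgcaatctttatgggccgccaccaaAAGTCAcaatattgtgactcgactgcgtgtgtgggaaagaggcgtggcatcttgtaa
The other 4 windows span 50 bp on each side. Capitals mark GACCACCCA, a word of the Ci protein, in the first, AGTCA, 5 letters of the Tailless word, in the next 2, and ATGGC, the reverse complement of GCCAT, the word of the Polycomb recruiter Pleiohomeotic, in the last.
hh 7258 bp upstream of the TSS (chr3R:23149114-23149214): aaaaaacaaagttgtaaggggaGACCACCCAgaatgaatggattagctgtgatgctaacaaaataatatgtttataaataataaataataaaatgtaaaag
hh 3984 bp upstream of the TSS (chr3R:23145840-23145940): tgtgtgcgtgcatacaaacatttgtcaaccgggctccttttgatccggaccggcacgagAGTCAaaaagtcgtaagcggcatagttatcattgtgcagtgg
hh 3269 bp downstream of the TSS (chr3R:23138587-23138687): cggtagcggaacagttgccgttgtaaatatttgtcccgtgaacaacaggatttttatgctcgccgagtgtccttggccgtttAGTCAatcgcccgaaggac
hh 6980 bp downstream of the TSS (chr3R:23134876-23134976): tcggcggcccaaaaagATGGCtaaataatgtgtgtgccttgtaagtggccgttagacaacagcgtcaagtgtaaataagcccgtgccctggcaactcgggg

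All 5 genes had at least 1 thresholded summit. By the same rule 2335 of 13945 protein-coding genes (16.7%) had one, and among genes of 4205 to 35231 bp, the range of lengths of the 5, the share was 28.1%. The gene hh had 10 thresholded summits, en 8, ptc 3, ci 3 and inv 1. As many as 10 summits were found at 20 genes in all (0.143% of protein-coding genes), and as many as 8 at 47 (0.337%). A gene with any thresholded summit had a median of 1. Close summits were counted separately, and a summit inside one gene that is nearest to the TSS of another was counted for both, except among the 5 genes, where it was counted once, for the gene of the nearest TSS. In the pooled list en led with 30 summits, followed by inv and ptc with 19 each, hh with 18 and ci with 10. Another 2 weak pooled summits inside inv were counted for en, and with them inv had 21. Hence hh led among thresholded summits and en in the pooled and both replicate lists. The replicates gave similar numbers: 33 and 32 at en, 16 and 18 at inv, 23 and 19 at hh, 22 and 22 at ptc, and 10 and 6 at ci, in replicates 1 and 3. Of the pooled summits 10 of 18 at hh were past the threshold, against 1 of 19 at inv (1 of 21 with those inside it that were counted for en) and 13.5% of the whole pooled list.

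**Figure D1:**
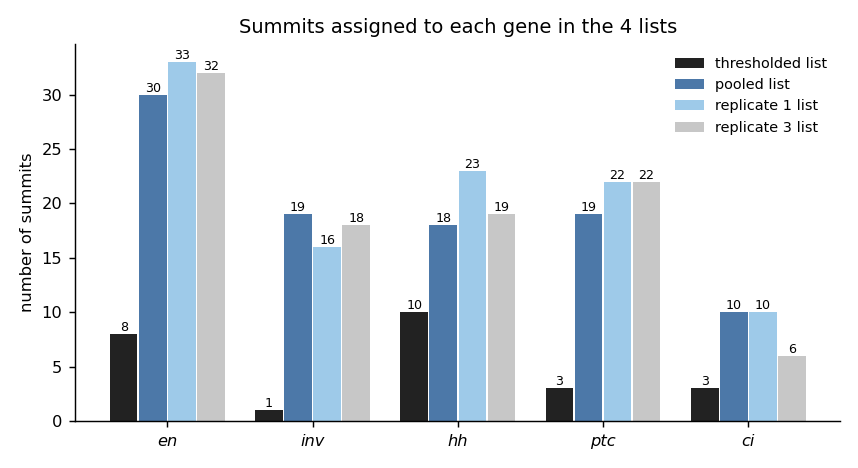
Number of summits assigned to en, inv, hh, ptc and ci (bars, linear axis) in the thresholded, pooled, replicate 1 and replicate 3 lists. Thresholded summits were most numerous at hh (10) and en (8), while inv had 19 pooled summits and 1 thresholded.

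Signal is the authors' own measure of enrichment; its scale is not stated, and values are from the pooled list unless a replicate is named. In the order of their strongest summits the genes were hh (1480, rank 39 of 4045), en (1090, rank 100), ptc (379.4, rank 1182), ci (271.1, rank 2227) and inv (197.2, rank 3947). The median over the 2335 genes with a thresholded summit was 309.1, so hh, en and ptc stood above it and ci and inv below. Stronger summits were found at 35 genes for hh (1.5% of genes with a summit) and at 87 for en (3.73%). A strongest value tends to be higher where more summits are counted, and these comparisons were not adjusted for that. The summits numbered 10 at hh, 8 at en and 1 at inv, with a median of 1 over genes with a summit. In replicates 1 and 3 the strongest hh summit had signal values of 752.3 and 747.5, and that of en 565.5 and 527.8. The hh values were above those of en in both replicates, by 1.33-fold and 1.42-fold. The strongest ptc summit had 237.8 and 139.5, that of ci 148.2 and 129.2, and that of inv 99.69 and 95.05. Those of en exceeded those of ptc by 2.38-fold and 3.78-fold. The ranges of ptc and ci overlapped, with ptc higher by 1.60-fold in replicate 1 and by 1.08-fold in replicate 3, so their order was within the spread between replicates. The replicates differed in which summit of these 2 genes was strongest. When the strongest thresholded summit was taken in each replicate, ptc had 237.8 and 215.2 and ci 152.3 and 129.2. The ranges then no longer overlapped, ptc exceeded ci by 1.56-fold and 1.67-fold, and en exceeded ptc by 2.38-fold and 2.45-fold. At the summits strongest in the pooled list, ci lay above inv by 1.49-fold and 1.36-fold. With the strongest taken in each replicate, ci lay above inv by 1.53-fold and 1.36-fold. The genes were read in the same 2 replicates, so their values are paired. With 2 replicates a gene the smallest two-sided p of an exact permutation test that ignores this pairing is 0.333. A paired test cannot reach a smaller one, so none of these orders was tested.

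The engrailed-invected complex lies on arm 2R, with inv at 11474465 to 11509695 on the plus strand and en at 11524006 to 11528210 on the minus strand. It is flanked by E(Pc), an Enhancer of Polycomb gene, 9194 bp from inv, and by tou, which encodes a chromatin protein, 49274 bp from en. Thresholded summits were unevenly spread along it. All 8 summits of en lay upstream of a TSS of en, on the side of tou, and 7 of these were intergenic. The 14310 bp between inv and en held 8 pooled summits and 0 thresholded ones. Over the whole pooled list 13.5% were past the threshold, so 8 summits are too few to show a gap. The 35231 bp of the inv gene held 17 pooled summits and 1 thresholded one, or 2.84 thresholded summits per 100 kb, close to the 3.02 per 100 kb of the 6 chromosome arms. The 20 kb upstream of en held 7, or 35.0 per 100 kb.

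The strongest en summit, at 2R position 11546832, lay 18622 bp upstream of the TSS, near the limit of assignment. With a limit of 10 kb en had 5 thresholded summits and with 5 kb 4, and the strongest was then the one at 568.0 (rank 518). Its log2 replicate signal was 9.09 ± 0.07 (SD, n = 2), with ranks of 105 and 93 in replicates 1 and 3. A weaker summit, 18832 bp upstream (268.4, rank 2277), shared its interval. The next, 4482 bp upstream at position 11532692 (568.0, rank 518), had replicate values of 308.4 and 284.1, or 8.21 ± 0.08 (SD, n = 2) on the log2 scale. These 2 strongest summits differed little between replicates. Summits 9297, 1429 and 13097 bp upstream followed, with pooled signals of 387.4, 328.4 and 284.8. At 9297 bp the replicates had 223.5 and 166.0, at 1429 bp 153.1 and 178.8, and at 13097 bp 149.7 and 148.6. In pooled signal and in replicate 3 the promoter itself carried less than these upstream summits. In replicate 1 its value of 169.0 was above those at 1429 and 13097 bp. A summit between the 2 annotated starts of en, in its 5′ UTR (position 11528046, 260.9, rank 2412), and a summit 60 bp upstream of the outer start (position 11528270, 227.7, rank 3048) matched the same replicate entries, 169.0 and 108.2. The strongest upstream summit had 4.18 times the pooled signal of the strongest promoter summit.

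The 1 thresholded summit of inv lay in its 5′ UTR, 112 bp upstream of the inner of its 2 annotated starts (2R position 11475596). Its signal was near the end of the list, which stopped at 194.6. It ranked 4691 in replicate 1 and 4201 in replicate 3, outside the 4045 strongest of each, so neither replicate alone would have placed it in a list of that length. The strongest inv summits just outside the list lay 397 bp upstream of a TSS (174.6, rank 4814) and 24545 bp downstream in the gene (163.0, rank 5431). The latter had replicate values of 88.32 and 89.19.

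The hh gene lies at 3R 23128169 to 23141906 on the minus strand, with 1 annotated start, 187 bp from CG31457 on its downstream side and 7746 bp from unk on its upstream side. Of its 10 thresholded summits 7 lay in introns of hh, 1 lay 165 bp upstream of the TSS and 2 farther upstream. The gene body held 51.0 thresholded summits per 100 kb. The strongest summit, 12116 bp downstream of the TSS at 3R position 23129790, averaged 9.55 ± 0.01 (SD, n = 2) in log2 replicate signal and ranked 48 and 34 in replicates 1 and 3. A weaker one 11914 bp downstream (578.2, rank 498) shared its interval. Both were closer to the TSS of CG31457, at 1809 and 2011 bp, than to that of hh. The 6 hh summits nearest to CG31457 were members only because they lay in the hh body. Without gene bodies hh had 4 thresholded summits, the strongest of them 3269 bp downstream of its TSS (536.6), and en, with 8 and 1090, stood above it in number and in signal. The gene that such a summit acts on cannot be told from its position.

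The remaining intronic summits of hh had pooled signals of 274.5 to 536.6. The one at 3269 bp (rank 581) had replicate values of 328.7 and 226.0, or 8.09 ± 0.38 (SD, n = 2) on the log2 scale. A pair at 7994 and 7775 bp (515.6 and 370.9) shared an interval and the replicate values of 297.1 and 256.1. The summit at 10259 bp had 181.5 and 169.5, and the one at 6980 bp 116.3 and 139.4. At the promoter, 165 bp upstream of the TSS, the values were 175.1 and 153.4 (pooled 318.8, rank 1637), and the strongest hh summit had 4.64 times the pooled signal. The 2 summits farther upstream were the least alike between replicates. The summit at 3984 bp had 139.1 in replicate 1 and 55.14 in replicate 3, a ratio of 2.52. The summit at 7258 bp had 62.0 and 142.4, a ratio of 2.30 in the other direction. These summits ranked 10456 in replicate 3 and 10157 in replicate 1, and they stood in the thresholded list at ranks 4033 and 3577.

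The ptc gene (2R 8649649 to 8665223, plus strand) lies between CG8635, 17686 bp away, and Acsl, an acyl-CoA synthetase gene, 589 bp away. It was the only one of the 5 with no thresholded summit within 500 bp of a TSS. Such a summit was present at 4 of the 5 genes and at 13.3% of all protein-coding genes. The strongest pooled summit at the ptc start lay 211 bp downstream and had a signal of 147.7 (rank 6425), with replicate values of 66.75 and 84.63. Its strongest thresholded summit was intergenic, 8540 bp upstream at position 8641109, and its replicates averaged 7.51 ± 0.54 (SD, n = 2) on the log2 scale. The other 2 lay in introns 4384 bp (298.0, rank 1896) and 5333 bp (340.1, rank 1460) downstream of the TSS. At 4384 bp the replicates had 211.7 and 115.7, and at 5333 bp 139.8 and 215.2, so the order of the 2 intronic summits was opposite in the replicates. Among the 4045 strongest summits of each replicate ptc had 6 in replicate 1 and 3 in replicate 3. A stronger thresholded summit between CG8635 and ptc (498.4, rank 687) was nearer to CG8635 and not counted for ptc.

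The ci gene (chromosome 4, 47710 to 57041, minus strand) stands 3931 bp from PlexB, a semaphorin receptor gene, and 8183 bp from RpS3A, a ribosomal protein gene, neither of which had a thresholded summit. Its strongest summit lay in its 5′ UTR, 75 bp upstream of the inner of its 2 starts (position 56406). On the log2 scale its replicate signal was 7.11 ± 0.14 (SD, n = 2). The other 2 lay upstream of ci inside the antisense RNA gene asRNA:CR43957, at 2115 bp in an intron and at 3236 bp in an exon. At 2115 bp the replicates had 152.3 and 85.1, and at 3236 bp 110.2 and 114.6. The summit at 2115 bp ranked 5186 in replicate 3. When the starts of genes of every type were used, these 2 upstream summits were no longer assigned to ci.

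**Figure D2:**
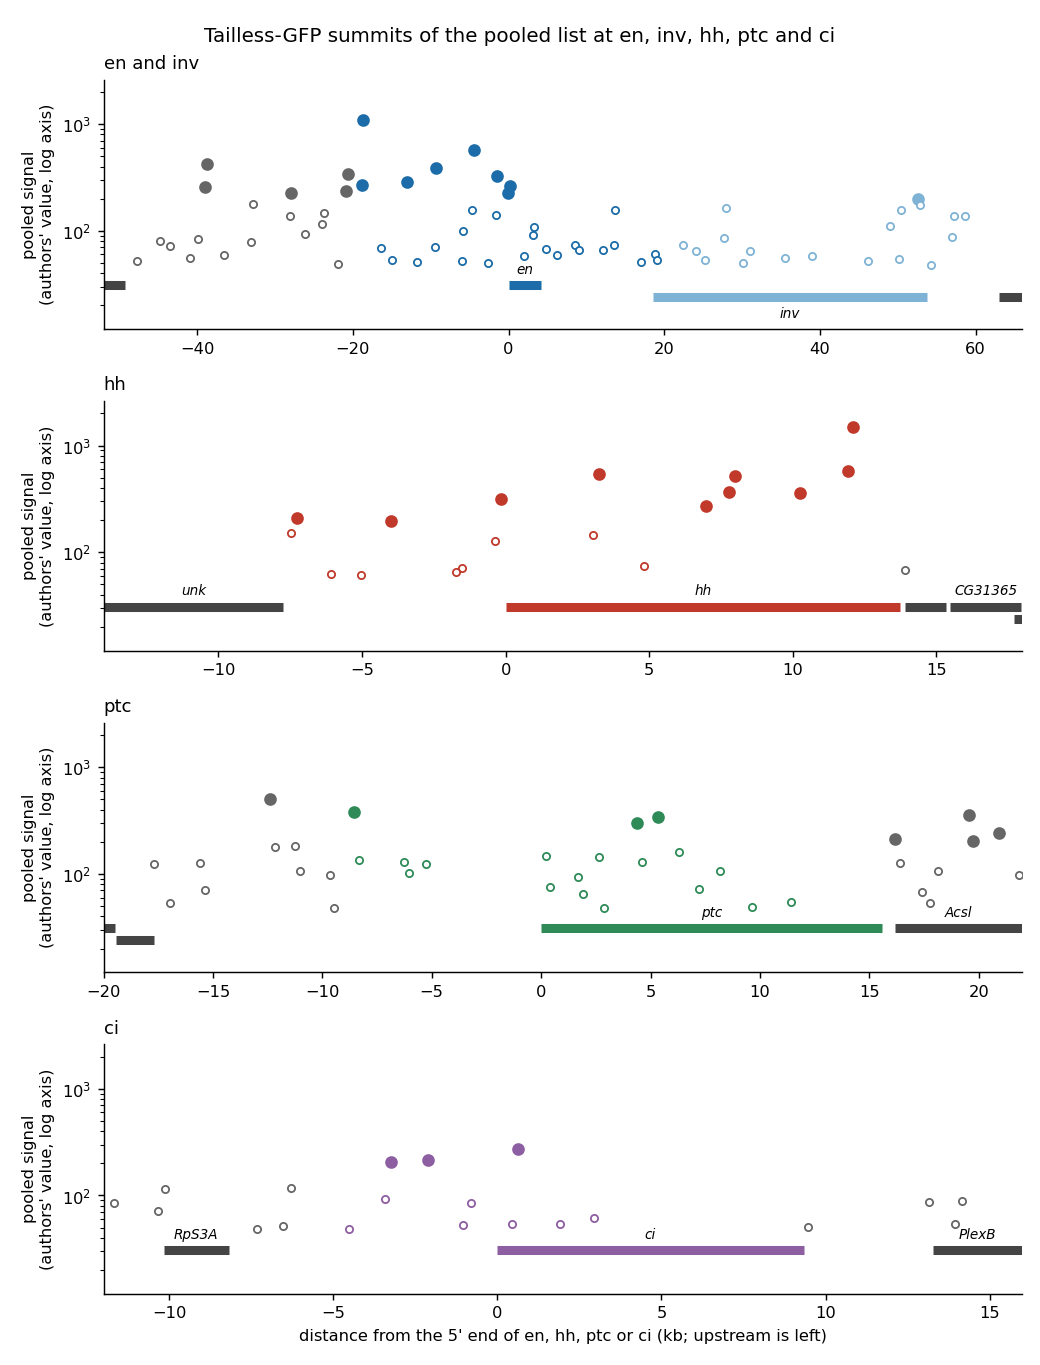
Pooled signal (log axis) of every pooled summit against distance in kb from the 5′ end of en, hh, ptc or ci, with upstream to the left. Filled points are thresholded, open points are below the threshold, grey points were not assigned to the 5 genes, and bars are protein-coding genes, those on the strand of en, hh, ptc or ci drawn above. The filled points of en lie upstream of it, those of hh mostly in its body, and inv has 1.

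Taking the 25 thresholded summits as a set, 11 were intergenic (44.0%), 10 in introns (40%), 3 in 5′ UTRs and 1 in a non-coding exon. Coding sequence and 3′ UTRs held 0. Over all 4045 thresholded summits the shares were 40.9% intergenic, 41.8% in introns and 1.53% in coding sequence. Summits within 500 bp of a TSS made up 5 of the 25 (20%) and 37.6% of the whole list, where the nearest TSS of any protein-coding gene was used. Of the 25 summits 6 shared an interval with another (24%, against 15.3% of the whole list), and they rested on 21 separate entries in each replicate list. Their median signal was 318.8, against 286.6 over the whole list. No test was made of these differences.

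Dividing replicate 1 by replicate 3 gave a median ratio of 1.09 over the 25, against 1.11 over 4039 thresholded summits, and 20 of the 25 were higher in replicate 1, as were 64.8% of the whole list. The SD of the log2 ratio was 0.51, against 0.41. Summits that share a replicate entry repeat its ratio in these values, and the 25 rested on 21 entries in each replicate. The 2 upstream summits of hh were the members that differed 2-fold or more (8.00%), as did 2.77% of the whole list. Of the 25 summits 23 overlapped one of the 4045 strongest entries in replicate 1, 22 one in replicate 3, and 21 both (84.0%, against 78.3% of the whole list). Both replicate lists rest on 1 shared control alignment. Of the 71 pooled summits of the 5 genes below the threshold, 49 (69.0%) overlapped an entry in both replicates and 21 in 1 of them, and over all pooled summits below the threshold the share in both was 71.1%. Their signals ran from 47.53 to 174.6, with medians of 66.23 at en, 69.6 at inv, 73.29 at hh, 104.5 at ptc and 54.07 at ci.

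**Figure D3:**
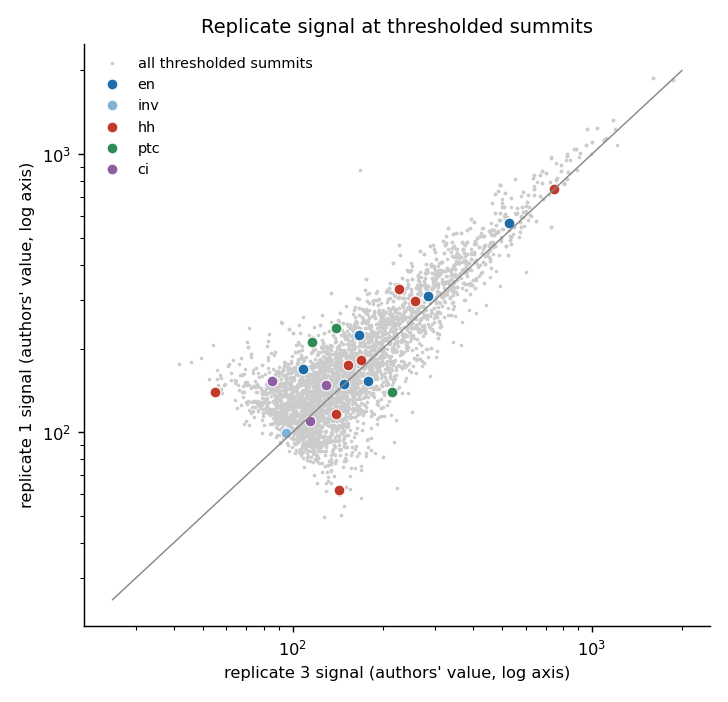
Signal in replicate 1 against replicate 3 (both axes log) at the thresholded summits, with those of en, inv, hh, ptc and ci coloured, all others grey and the line of equal values drawn. Points of summits that share a replicate entry coincide. The strongest hh and en summits lie close to the line, and the 2 hh summits 3984 and 7258 bp upstream lie farthest from it among the 25 coloured points.

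Short sequence words on either strand, no more than 50 bp from each summit, were counted and compared with the share over all thresholded summits. The Tailless word AAGTCA was present at 3 of the 25 summits (12%, exact binomial 95% interval 2.55 to 31.2%), against 15.0% of all. These were the strongest en summit, where it lay 12 bp from the summit, the outer promoter summit of en, where it covered the summit, and the strongest ptc summit, where it lay 29 bp away. Each of these was also a match to the longer form AAAGTCA, present at 8.31% of all thresholded summits. In windows of the same length centred 500 bp to either side, AAGTCA was present in 4 of 50 around the 25 summits (8.0%). Over the whole list it was present in 4.8% of such flanking windows. At hh 0 of 10 summits had AAGTCA (upper limit of the interval 30.8%), nor did the summits of inv and ci. In the windows printed above, the nearest copy lay 104 bp from the strongest hh summit and 64 bp from the one at 10259 bp. The median distance from a summit to the nearest AAGTCA was 273 bp for the 25 and 433 bp for the whole list. The 5 letters AGTCA, added after the data were seen, were present at 6 of 25 summits (24%), 2 of these at hh, against 27.5% of the whole list. Among the 71 weaker pooled summits 7 had AAGTCA (9.86%), against 9.09% of all pooled summits below the threshold.

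GAGAGA, the word of GAGA factor, stood at 3 of 25 summits (12%, interval 2.55 to 31.2%), against 6.97% of all. All 3 were at the complex of en and inv: the outer promoter summit of en, the summit 1429 bp upstream of it and the inv promoter summit. GCCAT was present at 2 of 25, the hh summit at 6980 bp and the ci promoter summit, against 19.3% of all. CAGGTA, which Zelda, a pioneer factor, binds, TAATTA, a homeodomain word, and CAGCTG, an E-box, were present at 0 of 25 (upper limit of the interval 13.7%), against 7.24%, 5.93% and 5.61% of all. AGGTCA, a word of many nuclear receptors, was present at 1, the en summit 9297 bp upstream, against 3.71%. The hh summit 7258 bp upstream was one of 2 among 4045 thresholded summits with the Ci word GACCACCCA (0.0494%). The word was as frequent in flanking windows (4 of 8090, 0.0494%). Its core GGGTGGTC, which overlaps it on the other strand, was present at 6 of 4045. That hh summit is one of the least alike between replicates, and a match to letters does not show that the protein binds there.

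Other genes of the pathway were examined by the same rule. Of 35 listed genes 23 had a thresholded summit, against 16.7% of all protein-coding genes. The list was chosen with earlier results of these data known, and the share was not matched for gene length. The difference was not tested. Among targets and partners in the segment 11 of 12 had one, with exd as the exception. In this group hth, a homeodomain cofactor gene, had 17 summits and dpp, a BMP ligand gene, had 4. The strongest summits of hth (1662, rank 26) and dpp (1517, rank 37) exceeded that of hh. Those of slp2, kn and nkd followed with 842.0, 765.2 and 658.6, and those of rho and slp1 had 485.0 and 470.0. The genes wg, gsb, gro and Wnt4 had weaker summits.

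Genes for release and spread of the ligand had summits in 4 of 8 cases. The glypican genes dlp (2018, rank 12, replicate values 1075 and 952.6) and dally (861.6, rank 182, 544.1 and 329.8) led. The gene disp, whose product releases lipid-modified Hedgehog, and shf also had a summit. The genes rasp, ttv, sotv and botv, for modification of the ligand and for heparan sulphate synthesis, had none. In reception smo, which encodes the signal transducer that Patched inhibits, and the co-receptor gene boi had a summit and ihog had none. In transduction 6 of 12 genes had summits: rdx, whose product targets Ci for degradation (12 summits, 502.0), CkIalpha (931.0, rank 150, 475.1 and 462.9) and gish (602.9), both casein kinase genes, the kinase genes sgg and fu, and nej, a histone acetyltransferase gene. The genes Su(fu), Pka-C1, slmb, Cul3 and Gprk2 had none, nor did cos, although a summit assigned to another gene lay within 500 bp of its TSS. Among all these genes the strongest summits of hh and en stood behind those of dlp, hth and dpp only, and the summit of inv was the weakest.

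**Figure D4:**
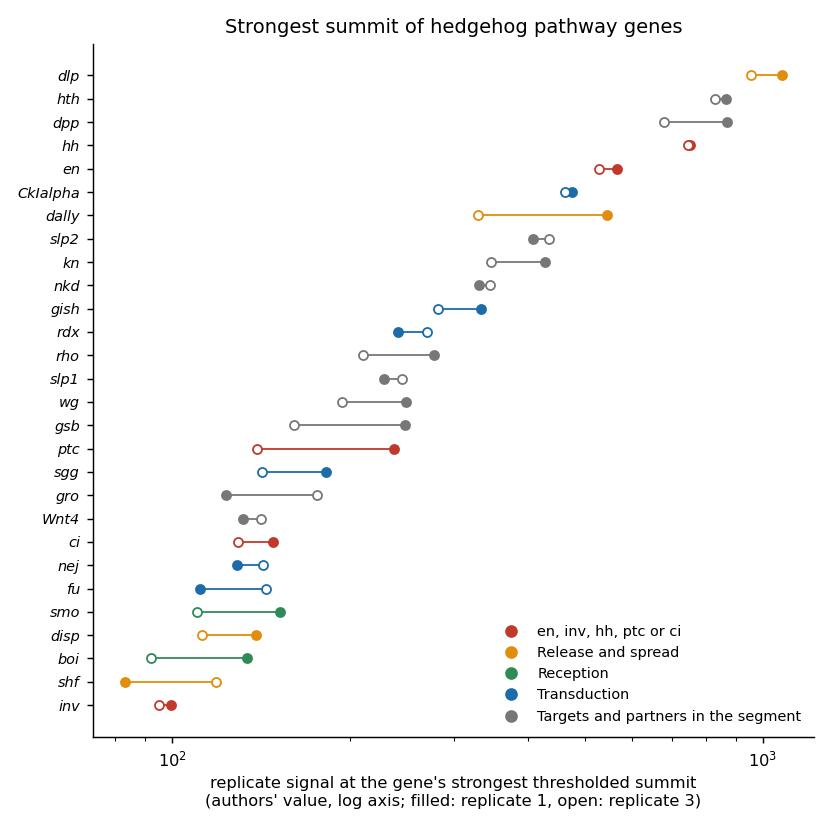
Signal in replicate 1 (filled) and replicate 3 (open) at the strongest thresholded summit of each pathway gene that had one, on a log axis, ordered by pooled signal and coloured by role. The members hh and en follow dlp, hth and dpp, and inv is last with 99.69 and 95.05.

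In the order of all genes by strongest summit, the genes next to the 5 were of varied kinds. Abd-B (1512), a Hox gene, stood above hh and Sodh1 (1455), a dehydrogenase gene, below it, while CG31457 had the same summit as hh. Lrch (1107) and RhoGEF64C (1085) stood on either side of en, CG7768 (379.4) and Prosalpha5 (377.8) of ptc, scyl (271.2) and Sema1b (270.8) of ci, and Nagk and Past1 (197.2 each) of inv. Likeness here is the difference in pooled signal alone.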

How the data were processed

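Text deposited with the lists states that each replicate list comes from its own alignment plus a control alignment shared by both, that the pooled list comes from both alignments and that control, and that coordinates are dm6. The thresholded list was made from the replicate and pooled lists and is labelled optimal. Of its 4045 summits 4039 overlapped an entry in both replicate lists. No source used here gives the aligner, peak caller or IDR threshold. The signal column is the authors' enrichment, without a stated scale. The −log10 q-value column, as deposited, has a ceiling and was left unused. Positions, 1-based, come from the authors' summit offset, another column. Depth is unknown, since no counts were given.

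Python 3.11.15 with pandas 2.3.3, numpy 2.4.6, scipy 1.17.1 and matplotlib 3.10.9 was used, with genes of Ensembl release 115 and RefSeq sequence of Release 6, the assembly of dm6. The replicate value of a summit is that of the strongest replicate entry overlapping its interval. Intervals on shares are exact (Clopper-Pearson) and cover counting error only. Assignment, matching and word search were tested on simulated data. With 1 group of 2 biological replicates no test between groups was possible.

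The 5 genes, the pathway list and the words were chosen with earlier results of these data known. Values are given for the 5 genes, their neighbours, the 12 pathway genes with the strongest thresholded summits and the genes next in order of signal; other pathway genes are named only. Alternatives were other distance limits, assignment rules, summit sets and windows, and each replicate alone.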

Additional observations from a re-analysis of the deposited data

How the results depend on the processing

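The 25 thresholded summits became 12 when only those inside gene bodies were counted and 14 among the 2022 strongest of the list, settings that hold fewer summits by construction. The 5 genes with a summit became 3 among these 2022, without inv and ci. Summits with AAGTCA numbered 5 within 100 bp instead of 3 within 50 bp. With the 5 letters AGTCA, an alternative added after the data were seen, 6 of 25 had a match, against 27.5% of the whole list. Both searches match more positions by construction. Leaving out a replicate gave 21 to 27 summits and 4 genes with one, inv being lost with either, and 4 summits with AAGTCA. No share over all summits is given for 100 bp or for single replicates, so these counts do not show a gain in AAGTCA. Alternatives for the summit taken as strongest or matched in a replicate, the former added after the data were seen, moved each gene's log2 signal by less than 1 SD, but the first ended the overlap of ptc and ci. Single replicates had log2 signals of 9.04 to 9.14 at en, 6.57 to 6.64 at inv, 9.55 to 9.56 at hh, 7.12 to 7.89 at ptc and 7.01 to 7.21 at ci. The other limits and rules gave 19 to 27 summits. There was 1 group, so no paired comparison between groups was possible. Genes were read in the same replicates, and their orders were compared within each replicate without a test. The lists end at fixed lengths and depth is unknown, so summits below their ends were not detectable.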

Other observations

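The region between en and tou held thresholded summits beyond the 20 kb limit as well. There were 5 of them in the 29274 bp from that limit to the end of tou, or 17.1 per 100 kb, all intergenic. The strongest, at 2R position 11566957, lay 38747 bp from the outer start of en and 15678 bp from the nearest TSS of tou, the gene to which it was assigned. It had a pooled signal of 419.1 (rank 977) and replicate values of 245.5 and 200.1, or 7.79 ± 0.21 (SD, n = 2) on the log2 scale. One 20632 bp from en (341.8, rank 1441) was nearest to en but too far to be assigned, with replicate values of 190.8 and 156.5. The third separate interval lay 27878 bp from en (225.4, rank 3102) and was less alike in the replicates, with 148.5 and 82.07. The 2 other summits shared replicate entries with these. AAGTCA lay within 50 bp of 3 of the 5, against 15.0% of all thresholded summits; the 5 were chosen after their values were seen and rest on 3 separate replicate entries. With a limit of 40 kb en would have 10 thresholded summits in place of 8, with 10 kb 5 and with 5 kb 4.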
